A study of Homo sapiens with 19 samples.

Results

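The P100 pellet was compared with total extracellular RNA (exRNA) in conditioned medium of Caco-2, a long-established human line of colorectal epithelium that the labels give as wild type. The members are the 4 libraries titled as P100 pellet and the 4 titled as total exRNA, 8 of the 19 libraries of the study, and mature human miRNAs were counted in each. Cells grown with 20% serum were switched at 80% confluence to medium free of serum and antibiotics for 24 h, and the collected medium was cleared of debris by a spin. From 1 portion of that medium total exRNA was precipitated as nucleic acid and then extracted with Trizol. The remainder was spun at 40000 xg, which gave the P40 pellet, and its supernatant was spun at 100000 xg, which gave the P100 pellet and the S100 supernatant. The P100 pellet went into Trizol with no precipitation step. Fraction and RNA preparation therefore changed together between the groups, and their effects cannot be told apart. P40 (4 libraries), S100 (4) and lysate of the cells (3) make up the rest of the study.

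miRNAs are short RNAs that guide Argonaute proteins to messenger RNAs, mostly through the seed, the bases near the 5′ end that pair with the target. Cells release them inside vesicles, bound to Argonaute or other proteins outside vesicles, and with lipoproteins. A pellet of the second ultracentrifugation holds small vesicles together with other dense particles, while total exRNA holds all of these carriers and whatever stays in solution.

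Sequences of miRNAs that the results turn on are shown first, with seed partners such as miR-92b-3p and miR-107. Sequences were matched by name to RefSeq (GRCh38.p14), which gave 199 of the 227 miRNAs tested. Each is written 5′ to 3′ with the seed, bases 2 to 8, in capitals. The first set was higher in P100 and holds both conventional miRNAs and entries that match other RNA classes.
miR-92a-3p: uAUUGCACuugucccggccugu
miR-92b-3p: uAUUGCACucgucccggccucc
miR-320b: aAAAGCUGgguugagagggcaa
miR-194-3p: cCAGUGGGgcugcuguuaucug
miR-423-3p: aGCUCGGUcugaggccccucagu
miR-1180-3p: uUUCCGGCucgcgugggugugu
miR-12136: gAAAAAGUcauggaggcc
miR-3651: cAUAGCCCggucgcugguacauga
miR-4485-3p: uAACGGCCgcgguacccuaa
miR-10396a-3p: gGCCCCGGgcccucgaccggg
miR-10396b-3p: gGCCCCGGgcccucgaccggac

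The second set was lower in P100, and 3 pairs within it share a seed.
miR-21-5p: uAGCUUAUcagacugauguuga
miR-141-3p: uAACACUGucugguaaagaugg
miR-200a-3p: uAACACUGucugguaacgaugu
miR-103a-3p: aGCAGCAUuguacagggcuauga
miR-107: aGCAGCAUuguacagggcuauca
miR-27a-3p: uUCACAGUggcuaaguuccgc
miR-27b-3p: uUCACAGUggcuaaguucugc
miR-15a-5p: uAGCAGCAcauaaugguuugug
miR-194-5p: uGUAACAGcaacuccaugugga
miR-29c-3p: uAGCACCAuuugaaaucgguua
miR-4454: gGAUCCGAgucacggcacca
miR-5100: uUCAGAUCccagcggugccucu

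P100 libraries held 10017 to 27027 counts over 273 to 328 detected miRNAs, and total exRNA libraries 34427 to 61622 counts over 384 to 438. Levels are given as CPM, which are counts brought to a common library size with TMM (trimmed mean of M values) factors. A level of 3 counts, the most that a count of 0 allows, is worth 44.4 to 304 of these CPM in the 8 libraries. Scaled levels are relative to the rest of a library and not amounts: fewer particles and less RNA per particle cannot be told apart. They differ from plain shares of counts by the TMM factor of the library. Mean Spearman correlation over the 227 miRNAs was 0.913 between P100 libraries, 0.891 between total exRNA libraries and 0.766 between the groups. Total exRNA replicate 2 stood apart from its own group, with a mean correlation of 0.837 against 0.904 to 0.915 for its 3 partners, and values without it are given beside the results it moved most. All 8 gut epithelial marker miRNAs had counts, at 2.97% to 4.37% of a P100 library and 4.45% to 5.40% of a total exRNA library. Of these 8, 3 were lower in P100 (14.5% of all 227 tested were), namely miR-141-3p and miR-200a-3p, which share a seed, and miR-194-5p. The other markers were not called. Blood cell markers held 0.140% to 0.283% and 0.0900% to 0.232%, none of the 2 tested was called, and their part in the results below was not tested.

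Of 227 miRNAs tested, 63 differed between P100 and total exRNA (27.8%) at a Benjamini-Hochberg adjusted p below 0.05 (edgeR, quasi-likelihood test). In P100 30 were higher (13.2%) and 33 lower (14.5%), around a median log2 fold change of -0.02 over all 227. The median size of a called change was 4.17-fold among those higher and 3.92-fold among those lower, with 60 of the 63 reaching 2-fold and 31 reaching 4-fold. In 53 of the 63 every library of one group lay above every library of the other, against 72 of all 227 (31.7%), and 61 of 63 had the same sign in all 4 batches. A call already requires a large difference, and these last counts are a description that adds no support. No label says that replicates were separate cultures, and the p-values cover the spread between these libraries alone, which may be technical. Without total exRNA replicate 2 the counts were 40 higher and 36 lower, and across the 8 fits that each leave out 1 library they ran from 24 to 40 and from 24 to 36. The call held in every setting tried for 16 miRNAs that were higher and 17 that were lower. The 227 passed a count filter over 18 libraries in 5 groups, and miR-1228-5p among them had no count in these 8. Shares of all 227 tested therefore include miRNAs that other groups let in. A filter and fit of the 8 libraries alone tested 157, of which 21 were called higher and 25 lower.

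**Figure D1:**
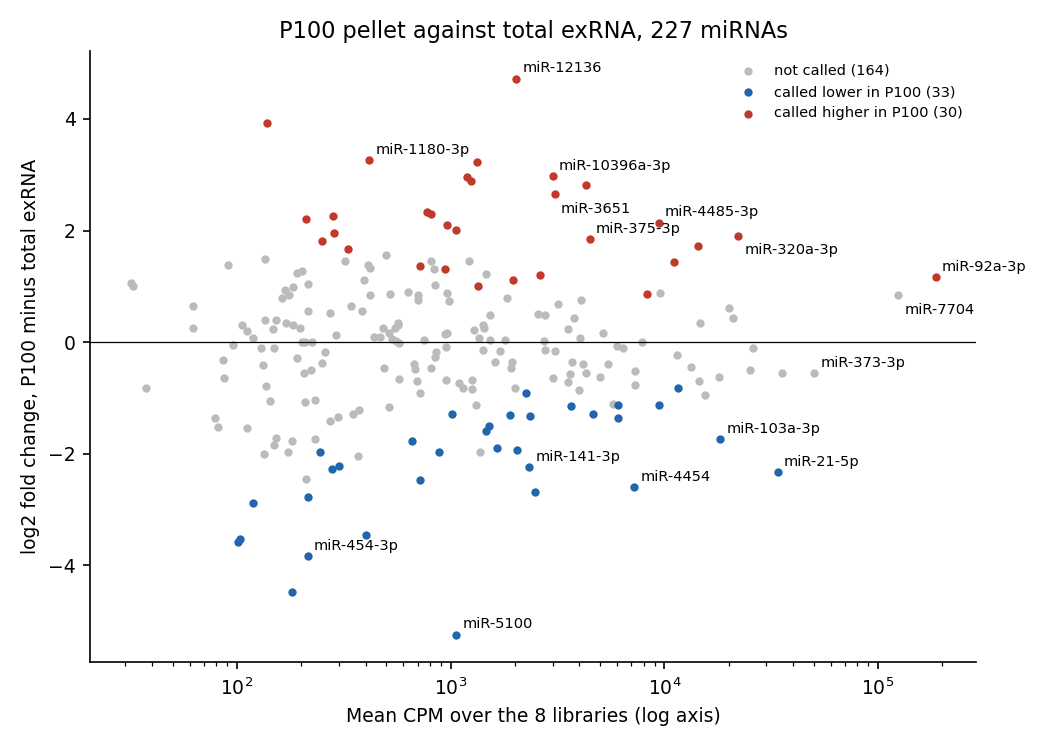
Each of the 227 tested miRNAs is a point, with its mean CPM over the 8 libraries on a log axis and its log2 fold change, P100 minus total exRNA, on the vertical axis. The 30 called higher (red) and 33 called lower (blue) lie on both sides of 0, from miR-12136 at 4.72 to miR-5100 at -5.24.

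Of the 11 miRNAs most abundant in either group 4 were called, miR-92a-3p and miR-320a-3p higher and miR-21-5p and miR-103a-3p lower. miR-92a-3p, an oncogenic miRNA encoded with miR-17 in a shared cluster (MIR92A1, an exon of MIR17HG at chr13:91351314-91351391, and MIR92A2 on X), led both groups. It held 26.4%, 23.6%, 24.6% and 21.8% of the counts in P100 replicates 1 to 4 and 14.1%, 11.4%, 13.7% and 9.58% in total exRNA. The lowest P100 library was above the highest total exRNA library, and the level was 2.24-fold higher in P100 (SE 0.25 on the log2 scale, adjusted p = 0.00137). miR-21-5p, which is raised in many tumours (MIR21, within an annotated exon of VMP1 at chr17:59841266-59841337), went the other way. Its share was 0.743%, 0.903%, 1.19% and 1.40% in P100 and 5.04%, 4.82%, 6.04% and 8.06% in total exRNA. The groups did not overlap, and miR-21-5p was 5.01-fold lower in P100 (log2 -2.32 ± 0.33, adjusted p = 2.36e-05).

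Other leading miRNAs did not all differ. miR-7704, which overlaps an exon of HOXD1, held 14.9% ± 2.79 of P100 counts and 9.31% ± 4.92 of total exRNA counts (SD, n = 4), with overlapping libraries and an adjusted p of 0.154 (0.292 without total exRNA replicate 2). miR-373-3p and miR-372-3p, a pair of the embryonic cluster on chromosome 19, held 3.79% and 2.70% in P100 and 6.35% and 4.53% in total exRNA. Neither was called (adjusted p 0.121 and 0.232), and total exRNA replicate 2 alone held 9.15% of each. Without it their adjusted p were 0.419 and 0.922. Also not called were miR-191-5p (2.26% against 1.68%), miR-25-3p (2.24% against 1.88%), miR-200c-3p (2.36% against 2.85%) and miR-93-5p (1.97% against 3.12%). Of these, miR-191-5p alone was called without total exRNA replicate 2 (log2 0.75 ± 0.29, adjusted p = 0.0442). The 5 most abundant miRNAs of a library together took 48.9% ± 2.73 of counts in P100 and 39.0% ± 3.58 in total exRNA, a difference of 9.95 percentage points (exact two-sided permutation test p = 0.0286, the smallest that 4 against 4 allows). Without P100 replicate 3 the difference was 8.76 points (exact p = 0.0571). Within batches, by sign flips of the 4 differences, its exact p was 0.125, the smallest that 4 pairs allow.

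Entries that overlap other RNA classes moved in both directions, 6 of 16 tested being higher and 4 lower. Over all 227 tested the shares were 13.2% higher and 14.5% lower. The largest rise in P100 was that of miR-12136. This entry, whose hairpin lies in a nuclear copy of mitochondrial sequence (chr1:632615-632685), stood at 5216, 4003, 4291 and 2131 CPM in P100 and at 52.2, 311, 129 and 55.5 in total exRNA. Every P100 library exceeded every total exRNA library, and the level was 26.4-fold higher (log2 4.72 ± 0.58, adjusted p = 6.66e-06). Replicate 2 was the highest of the total exRNA libraries, and the log2 value without it was 5.59. At equal depth it was 5.56. miR-4485-3p, the other mitochondrial entry tested (MTRNR2L8, chr11:10508270-10508326), was at 18018, 14463, 17076 and 11768 CPM in P100 and at 5817, 1539, 4092 and 2471 in total exRNA. Again the groups were apart, with a log2 fold change of 2.14 ± 0.52 (adjusted p = 0.00375).

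miR-3651, which lies with a small nucleolar RNA in an intron of IARS (chr9:92292458-92292547), was also higher in P100. Its P100 libraries read 4504, 5251, 5780 and 5681 CPM, and its total exRNA libraries 1148, 666, 995 and 555. The P100 level was 6.30-fold higher (log2 2.65 ± 0.35, adjusted p = 9.13e-06). miR-10396a-3p and miR-10396b-3p, encoded in ribosomal DNA repeats of chromosome 21 and differing only at their 3′ ends, may have exchanged reads. Together they rose: miR-10396a-3p was at 4327, 5380, 3590 and 8015 CPM in P100 and at 470, 266, 848 and 1138 in total exRNA. miR-10396b-3p was at 6520, 8695, 6787 and 8015 against 1043, 400, 1475 and 1388. Both sets were free of overlap, at log2 2.97 ± 0.48 and 2.81 ± 0.53 (adjusted p 0.000130 and 0.000460). miR-1246, which matches a fragment of a spliceosomal snRNA and is often reported in vesicles, rose by less (log2 1.21 ± 0.37, adjusted p = 0.0174), and its call was lost without P100 replicate 3 (0.0792) and without the filter on low counts (0.132).

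**Figure D2:**
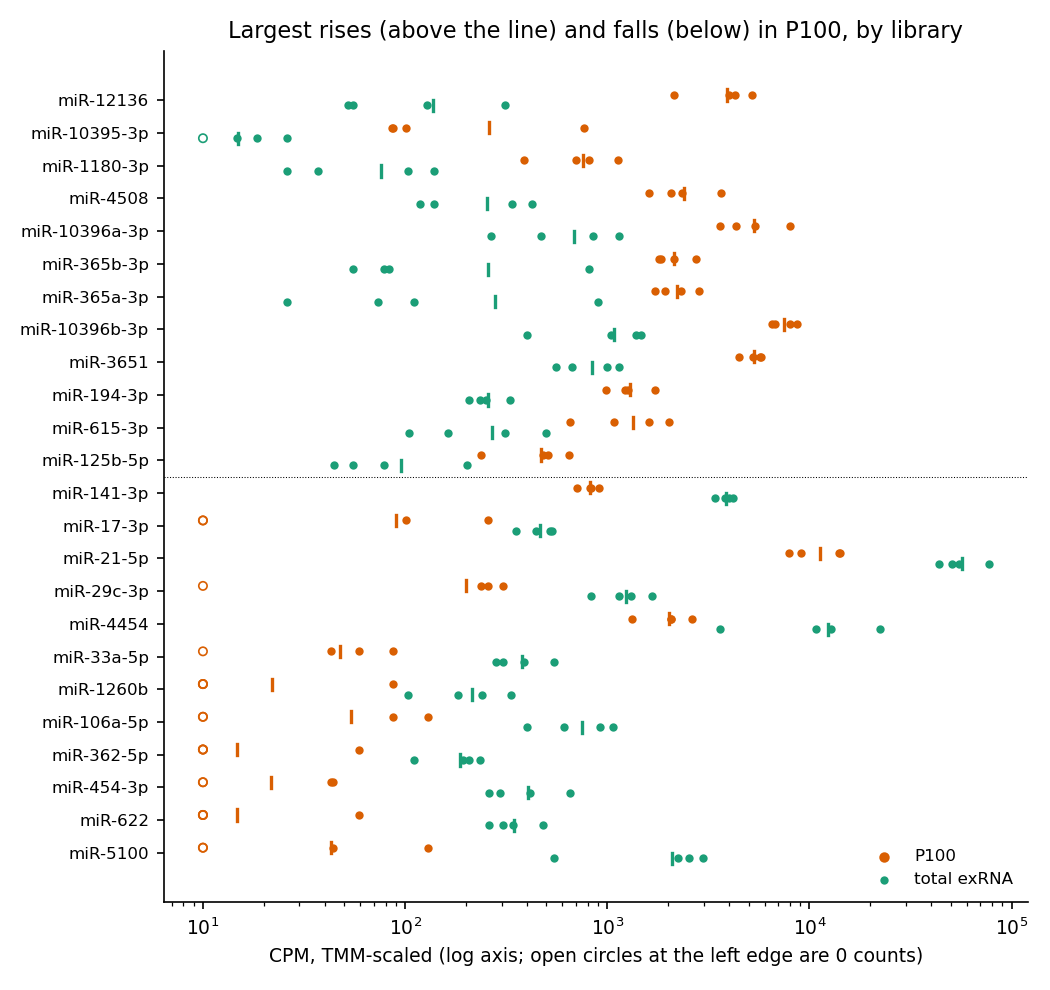
TMM-scaled CPM of the 12 largest rises (above the dotted line) and 12 largest falls (below it) on a log axis, 1 point per library, bars at group means. P100 (orange) and total exRNA (green) do not overlap in any row by the rule that chose them, and open circles at the left edge are libraries with 0 counts, as in 2 of the 4 P100 libraries for miR-5100.

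Conventional miRNAs that were higher in P100 included the miR-320 family, whose best known member is processed without Drosha. miR-320a-3p was at 34732, 38868, 34852 and 31146 CPM in P100 and at 6260, 15685, 7042 and 8108 in total exRNA. All P100 libraries were above total exRNA replicate 2, the highest of its group, with a log2 fold change of 1.91 ± 0.33 (adjusted p = 0.000171). miR-320b was at 1719, 1765, 1138 and 1623 against 313, 651, 277 and 167, a log2 fold change of 2.11 ± 0.43 (adjusted p = 0.000899). miR-320c also rose (1.95 ± 0.52, adjusted p = 0.00652), with its call lost without P100 replicate 2 (0.0596), without the low-count filter (0.0551) and at equal depth (0.215), while miR-320d at a mean of 69.2 and 102 CPM did not pass. Reads may be shared among members of this family. Means of miR-320a-3p were 93187 CPM in S100, 34900 in P100, 19130 in P40 and 9274 in total exRNA. Those of miR-320b were 3628, 1561, 919 and 352 in that order, so both were highest in S100.

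miR-375-3p, known from pancreatic islets and gut epithelium, was at 8001, 5940, 7487 and 6594 CPM in P100 and at 1826, 2575, 2138 and 1250 in total exRNA. The rise was 3.58-fold with no overlap (log2 1.84 ± 0.30, adjusted p = 0.000130). Both arms of miR-483, a miRNA embedded in the IGF2 gene, rose: miR-483-5p from a mean of 6022 to 16240 CPM (1.43 ± 0.27, adjusted p = 0.000376) and miR-483-3p from 418 to 1706 (2.02 ± 0.53, adjusted p = 0.00629). miR-423-3p was at 26375, 22555, 23994 and 15015 CPM in P100 and at 5269, 14472, 4221 and 2582 in total exRNA. Total exRNA replicate 2 came close to the lowest P100 library, and the log2 fold change of 1.72 ± 0.46 (adjusted p = 0.00756) became 2.48 without it.

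Among less abundant miRNAs, miR-1180-3p (MIR1180, intron of B9D1) was at 1126, 387, 701 and 812 CPM in P100 and at 26.1, 104, 36.9 and 139 in total exRNA. The groups were apart (log2 3.26 ± 0.56, adjusted p = 0.000139). miR-4508 rose from a mean of 255 to 2408 CPM (3.24 ± 0.86, adjusted p = 0.00704), and miR-615-3p of the HOXC cluster from 270 to 1341 (2.29 ± 0.57, adjusted p = 0.00413). miR-10395-3p rested on P100 replicate 1: it stood at 770 CPM there and at 86.1 to 101 in the other 3, on 18 counts against 3 over the groups, a ratio of 14.1 (exact 95% counting interval 4.11 to 74.5). Its log2 fold change of 3.93 fell to 2.43 without that library and lost its call (adjusted p = 0.0563).

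miR-365a-3p and miR-365b-3p have identical mature sequences from hairpins on chromosomes 16 and 17, so how reads were split between them is uncertain. miR-365a-3p was at 1719, 1937, 2321 and 2841 CPM in P100 and at 26.1, 903, 73.7 and 111 in total exRNA. All P100 libraries were higher, but total exRNA replicate 2 lay far above its partners. The log2 fold changes were 2.89 ± 0.99 for miR-365a-3p and 2.96 ± 0.98 for miR-365b-3p (adjusted p 0.0337 and 0.0281), and 4.97 and 4.92 without total exRNA replicate 2. Leaving out any of the other 7 libraries ended the call of miR-365a-3p (adjusted p 0.0501 to 0.0875), as did leaving out P100 replicate 3 or total exRNA replicate 1, 3 or 4 for miR-365b-3p (0.0621 to 0.0773). Without the low-count filter neither was called (0.266 and 0.247).

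Members of the family of miR-10, miR-99, miR-100 and also miR-125, which target developmental and growth genes, had 3 of 7 tested called higher (13.2% of all tested were) and a median of 1.11, with 6 positive values against 111 of all 227. miR-125b-5p was at 237, 646, 482 and 507 CPM in P100 and at 78.3, 44.4, 203 and 55.5 in total exRNA (log2 2.26 ± 0.60, adjusted p = 0.00623; 2.98 without total exRNA replicate 3). miR-100-5p was at 474, 344, 87.6 and 507 against 52.2, 148, 36.9 and 27.8. P100 replicate 3 lay within the range of total exRNA there, and the log2 fold change was 2.20 ± 0.64 (adjusted p = 0.0115; 3.08 without total exRNA replicate 2, 3.50 at equal depth). Neither was abundant enough to be tested in a fit of the 8 libraries alone. Means in P40 and S100 were 233 and 786 CPM for miR-125b-5p and 363 and 2304 for miR-100-5p, so S100 was above P100 for both. miR-99b-5p was higher by 1.11 ± 0.38 (adjusted p = 0.0293), a call lost without P100 replicate 2 or 4 or total exRNA replicate 3 or 4 (0.0586 to 0.158). The most abundant member, miR-125a-5p, was at 3907 and 2442 CPM and did not pass (0.68 ± 0.29, adjusted p = 0.0803). It did without total exRNA replicate 2 (0.86 ± 0.32, adjusted p = 0.0359).

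In the miR-200 family 2 of 7 tested members were lower in P100, where 14.5% of all tested were. The first, miR-141-3p, which maintains the epithelial state by repressing ZEB factors (MIR141, chr12:6964097-6964191, intron of MIR200CHG), was at 711, 818, 832 and 913 CPM in P100 and at 4173, 3995, 3429 and 3804 in total exRNA. Both groups were tight and far apart, with a 4.72-fold lower level in P100 (log2 -2.24 ± 0.38, adjusted p = 0.000139). miR-200a-3p, which shares its seed, was at 415, 904, 1007 and 812 against 2295, 1924, 2507 and 2277. It fell by 1.51 ± 0.38 on the log2 scale (adjusted p = 0.00416). The other 5 were not called, among them miR-200c-3p from the neighbouring hairpin of miR-141 (25143 and 26861 CPM, log2 -0.10 ± 0.23), miR-200b-3p (-0.16 ± 0.46) and miR-429 (-0.09 ± 0.66). miR-205-5p, another epithelial miRNA, was 2.58-fold lower (3675, 3874, 3678 and 2333 against 10694, 8020, 9420 and 7053, adjusted p = 0.000585).

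miR-103a-3p and miR-107, which lie in introns of the pantothenate kinase genes PANK2, PANK3 and PANK1 and share a seed, both fell. miR-103a-3p was at 10787, 7834, 7881 and 7102 CPM in P100 and at 32735, 16455, 29457 and 33988 in total exRNA. Every P100 library was below total exRNA replicate 2, the lowest of its group (log2 -1.74 ± 0.33, adjusted p = 0.000386). miR-107 fell by 1.32 ± 0.32 (adjusted p = 0.00375; 0.0510 at equal depth). The mature sequences differ near the 3′ end only, and reads may have crossed between them. miR-15a-5p, a repressor of BCL2 from the DLEU2 locus on chromosome 13, was at 237, 258, 613 and 304 CPM against 1669, 1347, 1548 and 1111 (log2 -1.97 ± 0.47, adjusted p = 0.00321). miR-16-5p, which has the same seed as miR-15a-5p, was at 11114 and 17922 CPM and missed the threshold (-0.70 ± 0.27, adjusted p = 0.0631). In the list of miR-15, miR-16, miR-103 and miR-107, 3 of 6 tested were lower (14.5% of all tested were), none higher, and the median was -1.31, with 2 of the 3 being miR-103a-3p and miR-107.

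All 6 tested members of the miR-23, miR-27 and miR-24 clusters, which act in lipid metabolism and vessel growth, had negative values (115 of all 227 did) with a median of -0.89, and 3 were called lower, against 14.5% of all tested. Near-identical members of these clusters may share reads. miR-27a-3p was at 1008, 1205, 1226 and 913 CPM in P100 and at 2426, 2619, 3115 and 2638 in total exRNA (log2 -1.30 ± 0.31, adjusted p = 0.00321). miR-27b-3p fell by 1.15 ± 0.30 and miR-23b-3p by 1.29 ± 0.28 (adjusted p 0.00589 and 0.00137). The groups did not overlap for any of these 3 miRNAs. miR-23a-3p and miR-24-3p were not called (-0.38 ± 0.29 and -0.15 ± 0.33), although miR-23a-3p is encoded beside miR-27a-3p on chromosome 19.

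Further falls came in families with a single called member. miR-26a-5p, a brake on cell cycle genes, went from a mean of 12901 CPM in total exRNA to 5949 in P100 (log2 -1.13 ± 0.29, adjusted p = 0.00589). miR-30d-5p went from 8288 to 3833 (-1.12 ± 0.27, adjusted p = 0.00317). miR-29c-3p, a repressor of collagen genes, was at 237, 258, 306 and 0 CPM in P100 and at 1669, 1317, 830 and 1138 in total exRNA, with the 0 in the shallowest library (-2.47 ± 0.52, adjusted p = 0.00111). miR-31-5p, a colorectal tumour miRNA, fell by 1.76 ± 0.48 (adjusted p = 0.00756; 0.0558 without total exRNA replicate 4). miR-371a-5p of the embryonic cluster fell by 0.83 ± 0.26 (adjusted p = 0.0183; 0.0537 without P100 replicate 4 and 0.0883 with another TMM variant for zero counts), and the other 4 tested members of that list were not called.

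All 3 tested entries that resemble tRNA were lower in P100, where 14.5% of all 227 tested were. miR-5100 had 0, 129, 43.8 and 0 CPM in P100 and 2974, 548, 2544 and 2249 in total exRNA. It showed the largest fall of the comparison (log2 -5.24 ± 0.86, adjusted p = 0.000139; -6.60 without P100 replicate 2). That fall lay near the counting floor of P100, on 4 counts against 370 over the groups, and 129 CPM is the level of 3 counts in P100 replicate 2. miR-4454 was at 2074, 2626, 2058 and 1319 against 22328, 3596, 12793 and 10830 (-2.59 ± 0.53, adjusted p = 0.00111). In both, total exRNA replicate 2 was the lowest of its group and still above every P100 library. miR-1260b rested on 2 counts against 39, a ratio of 0.120 (exact 95% counting interval 0.0141 to 0.464). Its call (log2 -2.88 ± 0.91, adjusted p = 0.0195) was lost without P100 replicate 1 or 2 or total exRNA replicate 4 (0.0558 to 0.0751) and without the low-count filter (0.0676), and the value was -6.89 without P100 replicate 3. miR-3196, a GC-rich entry not in that list, also fell, from 3104, 725, 5364 and 7997 CPM to 356, 603, 832 and 913 (-2.68 ± 0.72, adjusted p = 0.00756).

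Other large falls lay near the counting floor of P100. miR-622 had 1 count against 70, a ratio of 0.0335 (interval 0.000836 to 0.193). miR-362-5p had 1 against 36 (0.0651, 0.00160 to 0.387), and miR-454-3p 2 against 85 (0.0552, 0.00657 to 0.205). Their adjusted p-values were 0.00413, 0.0101 and 0.000994, and none of the 3 was abundant enough for the fits at equal depth or of the 8 libraries alone. miR-622 also did not pass the count filter without total exRNA replicate 2, 3 or 4. Its entry into the test thus depended on the group where it was high, and its adjusted p is a description. miR-622 and miR-362-5p each had their 1 count in P100 replicate 1, and their fitted values of -4.48 and -3.57 became -7.60 and -6.70 without it. miR-33a-5p, from an intron of the cholesterol regulator SREBF2, was at 59.3, 43.0, 87.6 and 0 CPM against 548, 281, 387 and 305 (-2.77 ± 0.77, adjusted p = 0.00810). miR-106a-5p was at 0, 129, 87.6 and 0 against 1069, 400, 922 and 611 (-3.46 ± 0.73, adjusted p = 0.00111; -4.20 without P100 replicate 2), and its reads may be confused with those of miR-17-5p. miR-1273h-5p had no count in P100 and 9, 2, 38 and 9 counts in total exRNA, where replicate 3 held most of them. It did not enter the test, and a floor of 3 counts over the P100 group made it at least 8.25-fold lower, or at least 3.88-fold lower on 20 counts without total exRNA replicate 3.

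For the lists that follow, 13.2% of all 227 tested were higher and 14.5% lower. The seed family of miR-25 and miR-92 had 2 of 3 tested members higher (median 1.00). miR-92b-3p, at log2 1.00 ± 0.33 (adjusted p = 0.0242), lost its call without P100 replicate 1 or total exRNA replicate 3 or 4 (0.0558 to 0.0815). The miR-17, miR-18, miR-19 and miR-20 clusters, tested in 14 members with a median of -0.56, held 2 higher and 2 lower. Entries of ribosomal RNA loci held 2 higher and 1 lower of 9 (median 0.34). That lower entry was miR-663b (-1.93 ± 0.59, adjusted p = 0.0170), whose call was lost without P100 replicate 1 or 3 or total exRNA replicate 4 (0.0527 to 0.128; -1.21 without the last), while miR-663a was not called (0.34 ± 0.66). The family of miR-130, miR-301 and miR-454 had 2 of 6 lower (median -1.31); miR-301a-3p, at -1.29 ± 0.47 (adjusted p = 0.0423), lost its call in 7 of the 8 fits without 1 library, all but the one without total exRNA replicate 2 (0.0562 to 0.131). miR-221-3p rose (0.86 ± 0.31, adjusted p = 0.0423) and its call was lost in 6 of those 8 fits, the exceptions being P100 replicate 4 and total exRNA replicate 2 (0.0536 to 0.183), whereas miR-222-3p was at 0.07 ± 0.42 and not called. The calls not described elsewhere were miR-1301-3p (1.68 ± 0.51; lost without replicate 4 of either group, 0.0529 to 0.0537), miR-660-5p (-1.60 ± 0.51; lost without P100 replicate 2 or 4 or total exRNA replicate 3, 0.0531 to 0.0803) and miR-324-3p (-1.97 ± 0.70; kept only without total exRNA replicate 2, otherwise 0.0596 to 0.133).

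No member of let-7 (9 tested, median 0.17), of the miR-378 family (4, -0.45), of miR-148 and miR-152 (2, -0.82) or of the miR-183 cluster (2, -0.14) passed the test. let-7a-5p, the most abundant let-7, was at 5453, 3185, 5429 and 6493 CPM in P100 and at 1774, 5031, 2507 and 2832 in total exRNA. Only total exRNA replicate 2 reached into the P100 range, and the adjusted p was 0.139. Without that library it was 0.0217, at a log2 fold change of 1.15 ± 0.39. Of 5 tested miRNAs often reported in vesicles 1 was higher (miR-1246) and 1 lower (miR-21-5p), and miR-451a (1.38 ± 0.58), miR-146a-5p (1.02 ± 0.44) and miR-122-5p (0.55 ± 0.53) did not pass. Of 10 colorectal tumour miRNAs 1 was higher (miR-92a-3p) and 2 lower (miR-21-5p and miR-31-5p). The 16 tested entries that overlap other RNA classes had a median of 0.54, and over the 28 entries numbered 3000 or above 7 were higher and 3 lower with a median of 0.17. Beside these counts, 13.2% of all 227 tested were higher and 14.5% lower.

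**Figure D3:**
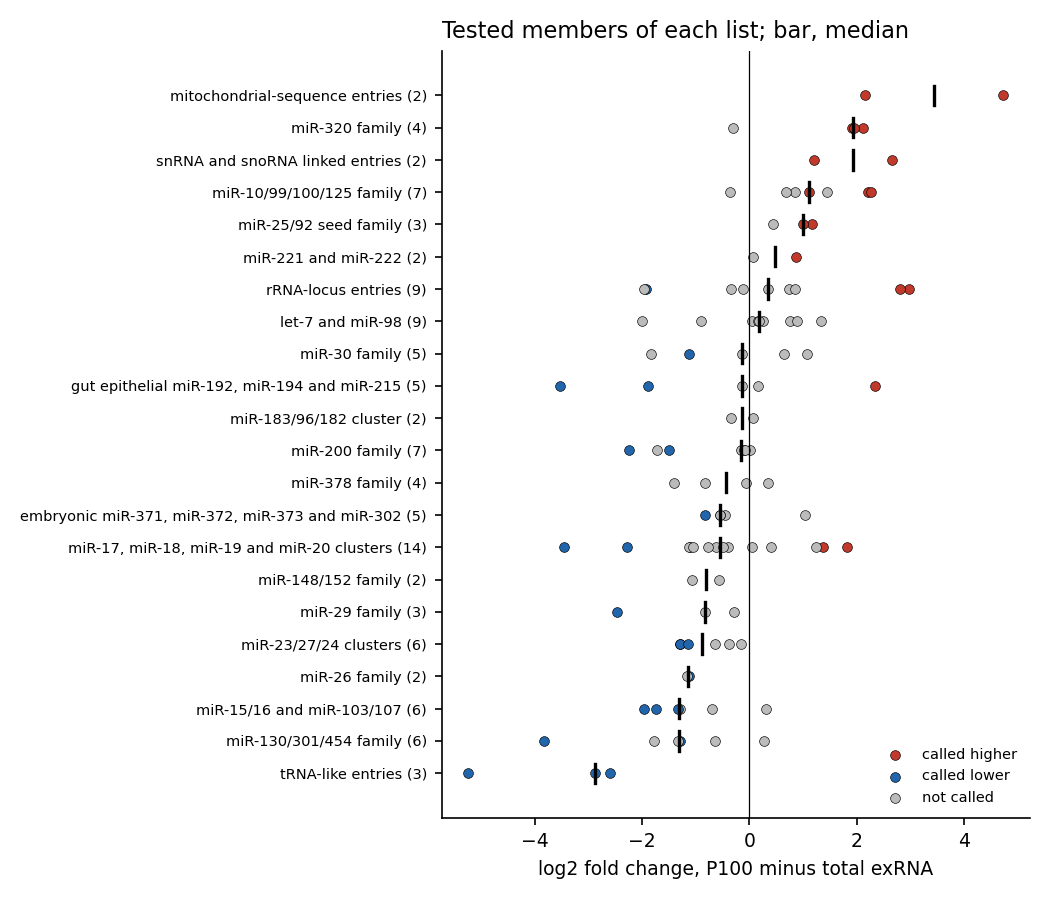
Each point is a tested member of a miRNA list, placed by its log2 fold change, P100 minus total exRNA, with bars at list medians and the number tested in parentheses. Called members lie to the right in the mitochondrial (median 3.43) and miR-320 (1.93) lists, to the left in the tRNA-like list (-2.88), and on both sides in the gut epithelial list of miR-192, miR-194 and miR-215.

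The arms of a hairpin did not always move together. Of 15 hairpins with both arms tested and at least 1 called, 3 had both arms called in the same direction (miR-92a and miR-483 higher, miR-21 lower) and 1 had them called in opposite directions. That was miR-194, a miRNA of differentiated gut epithelium made from MIR194-2 in MIR194-2HG (chr11:64891355-64891439, minus strand). Its 3p arm was at 1719, 990, 1270 and 1217 CPM in P100 and at 235, 207, 332 and 250 in total exRNA (log2 2.33 ± 0.40, adjusted p = 0.000139). Its 5p arm was at 711, 646, 482 and 1015 in P100 and at 3443, 947, 2618 and 3332 in total exRNA (-1.89 ± 0.45, adjusted p = 0.00306; -2.14 without total exRNA replicate 2). The 3p arm was free of overlap, while total exRNA replicate 2 reached into the P100 range for the 5p arm. The 5p sequence is also made from MIR194-1 on chromosome 1, so the loci of its reads cannot be separated. In cell lysate the 3p arm averaged 4478 CPM and the 5p arm 2261, in P40 795 and 1580, and in S100 42.9 and 1062.

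In the remaining 11 hairpins only 1 arm was called. The 3p arms of miR-10396a and miR-10396b rose while their 5p arms, at means of 3253 and 6114 CPM in P100 and 4125 and 6642 in total exRNA, did not pass (-0.35 ± 0.34 and -0.11 ± 0.33). miR-423-5p, at 13750, 9900, 11778 and 13899 CPM against 3600, 10758, 5751 and 6581, did not pass either (0.88 ± 0.42, adjusted p = 0.111), but did without total exRNA replicate 2 (1.26 ± 0.43, adjusted p = 0.0241). miR-18a-3p rose by 1.36 ± 0.44 (adjusted p = 0.0218) and miR-18a-5p was at -1.13 ± 0.53 (adjusted p = 0.107). The former call was lost without P100 replicate 1 or 4 or total exRNA replicate 4 (0.0517 to 0.0596). Without total exRNA replicate 2 both arms of miR-18a were called, in opposite directions. The 3p arm was then at 1.30 ± 0.49 and the 5p arm at -1.34 ± 0.52 (adjusted p 0.0398 and 0.0479). miR-17-3p fell by 2.28 ± 0.76 (adjusted p = 0.0270), lost without P100 replicate 1 or 3 or total exRNA replicate 1 or 3 (0.0509 to 0.0931) and at -4.35 without P100 replicate 2. miR-17-5p did not pass (-1.10 ± 0.48, adjusted p = 0.0890), but did without total exRNA replicate 2 (-1.32 ± 0.45, adjusted p = 0.0241). miR-192-3p rested on 1 count against 31, a ratio of 0.0756 (interval 0.00186 to 0.454), at an adjusted p of 0.0423, and miR-192-5p was at 0.16 ± 0.37. That call was lost without P100 replicate 2, 3 or 4 or total exRNA replicate 4 (0.0696 to 0.119), was not tested without total exRNA replicate 1, and read -6.67 without P100 replicate 1.

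The weakest calls among these arms were those of miR-21-3p, miR-28-3p, miR-193a-5p and miR-92a-1-5p. miR-21-3p (-2.21 ± 0.81, adjusted p = 0.0423) and miR-28-3p (-0.91 ± 0.34, adjusted p = 0.0489) each kept their call in a single fit without 1 library, that without total exRNA replicate 2, and reached 0.135 and 0.149 without total exRNA replicate 1. With the batch number as a block the adjusted p of miR-28-3p was 0.0539. miR-193a-5p (1.31 ± 0.47, adjusted p = 0.0423) was at 948, 990, 569 and 2942 CPM in P100 and fell to 0.67 without P100 replicate 4 (adjusted p = 0.267), and with the block its adjusted p was 0.0794. Its call was also lost without P100 replicate 2 or total exRNA replicate 1, 3 or 4. miR-92a-1-5p (1.82 ± 0.62, adjusted p = 0.0318) read 2.69 without total exRNA replicate 2 and was lost without P100 replicate 2 or 3 or total exRNA replicate 1, 3 or 4 (0.0542 to 0.0998). Other scalings, filters, depths or sets of libraries also ended the calls of miR-17-3p, miR-18a-3p, miR-28-3p, miR-1301-3p, miR-324-3p, miR-92a-1-5p, miR-92b-3p, miR-99b-5p, miR-193a-5p, miR-221-3p and miR-301a-3p in at least 1 setting each (adjusted p 0.0510 to 0.425 where lost).

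**Figure D4:**
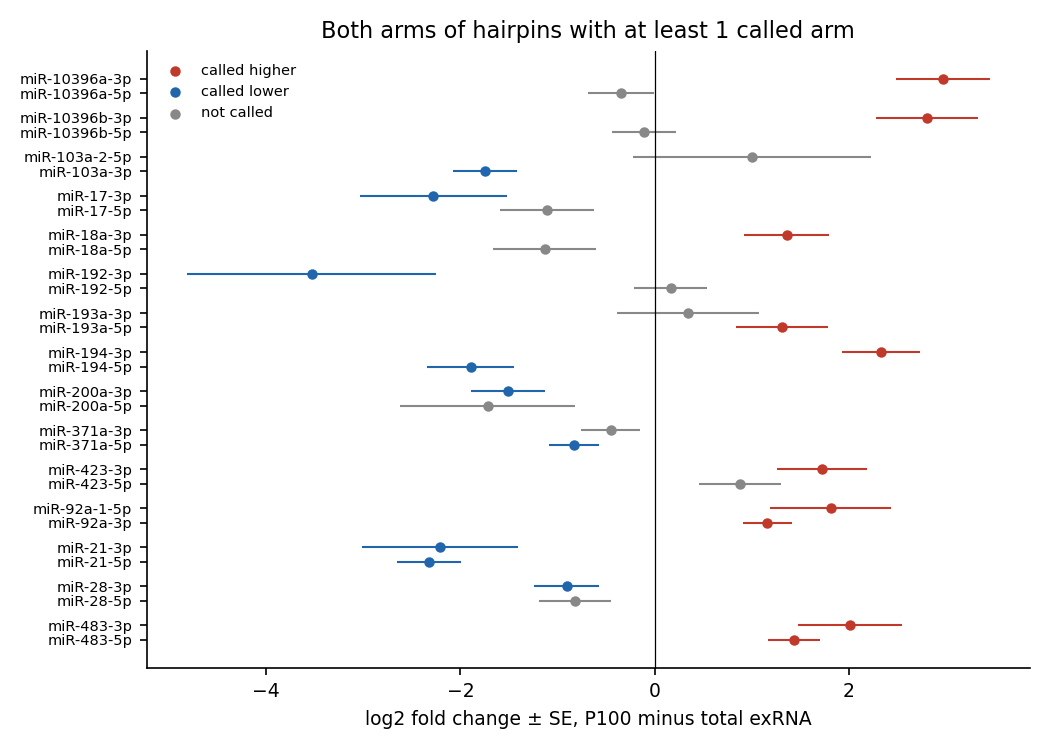
Log2 fold change, P100 minus total exRNA, with SE bars for both arms of the 15 hairpins that had both arms tested and at least 1 called. miR-194 has a called arm on each side of 0 (2.33 and -1.89), and the 5p arms of miR-10396a and miR-10396b lie near 0 beside called 3p arms at 2.97 and 2.81.

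Called miRNAs with a RefSeq sequence numbered 55, with 46 different seeds. In 9 seeds at least 2 members were called, and in none of these did called members go in opposite directions. Higher in P100 were the pairs miR-92a-3p and miR-92b-3p, miR-320b and miR-320c, miR-100-5p and miR-99b-5p, miR-365a-3p and miR-365b-3p, and miR-10396a-3p and miR-10396b-3p. Lower were miR-141-3p and miR-200a-3p, miR-103a-3p and miR-107, miR-27a-3p and miR-27b-3p, and miR-301a-3p and miR-454-3p. Several of these pairs are near-identical along their whole length, and their values may not be independent. Among uncalled members of these seeds, miR-320d (-0.31) and miR-99a-5p (-0.37) lay on the other side of 0 from their called partners. miR-25-3p, miR-130b-3p and miR-301b-3p lay on the same side as theirs.

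The tetramer CCCU was searched in the mature sequences as written, 5′ to 3′, with no account of overlap with other motifs. It was present in 9 of the 25 miRNAs with a sequence that were higher in P100 (36.0%), in 0 of the 30 that were lower and in 20 of all 199 (10.1%). The 9 are shown because they make up a large part of the higher set, here with CCCU in capitals.
miR-10396a-3p: ggccccgggCCCUcgaccggg
miR-10396b-3p: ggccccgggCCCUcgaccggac
miR-125b-5p: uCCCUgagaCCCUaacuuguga
miR-18a-3p: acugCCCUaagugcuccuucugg
miR-365a-3p: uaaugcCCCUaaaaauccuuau
miR-365b-3p: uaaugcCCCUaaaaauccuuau
miR-423-3p: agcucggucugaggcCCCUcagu
miR-4485-3p: uaacggccgcgguaCCCUaa
miR-615-3p: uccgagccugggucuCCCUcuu

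These 9 hold 2 sets that may share reads, miR-365a-3p with miR-365b-3p and miR-10396a-3p with miR-10396b-3p. Of all 20 carriers 18 had a positive log2 fold change (111 of all 227 tested did, with or without a sequence). The median of the 20 was 1.17. These 9 are among the 18, and their sign was fixed by the choice of called higher. The negative carriers were miR-331-3p (-2.03) and miR-339-5p (-0.67), neither called. Carriers include related sequences, such as miR-125a-5p and miR-125b-5p with 1 seed, and are not independent values. Among the lower calls the count of carriers was 0 in every setting but the one without the low-count filter, where it was 1 of 30. GGAG was present in 3 of the 25 higher, 2 of the 30 lower and 20 of the 199 (10.1%), and CGGGAG in none of the 199. Median GC content was 56.5% in the higher set, 47.8% in the lower set and 50.0% over all 199. Across miRNAs GC content and log2 fold change had a Spearman correlation of 0.19 (n = 199), which was 0.088 without total exRNA replicate 2; the miRNAs share the 8 libraries. The mean GC content of a library, weighted by counts, ran from 57.8% to 59.9% in P100 and from 50.6% to 57.4% in total exRNA, lowest in replicate 2. Without miR-92a-3p and miR-7704 the groups overlapped, at 53.6% to 54.8% in P100 and 48.2% to 53.8% in total exRNA. Over miRNAs numbered below 1000 without miR-92a-3p they did not, at 49.9% to 51.1% and 46.8% to 49.6%. The part of base composition in the fold changes was not tested.

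The share of each miRNA in total exRNA was then set beside its share in the P40, P100 and S100 libraries, a look chosen after results were seen and with S100 replicate 1 left out for its 48 counts. In 10 of 227 miRNAs (4.41%) all 4 total exRNA libraries lay above all 11 fraction libraries, and in 5 (2.20%) below all 11. Of the 10, 9 were among the 33 called lower in P100, and the 5 were among the 30 called higher. A call against P100 fixes part of this pattern, so the overlap is no support for it. The 9 were miR-21-5p, miR-141-3p, miR-200a-3p, miR-15a-5p, miR-27b-3p, miR-30d-5p, miR-5100, miR-1260b and miR-622, and the remaining miRNA was miR-20a-5p, which was not called (-0.77 ± 0.37, adjusted p = 0.108).

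miR-21-5p made up 5.99% ± 1.48 of counts in total exRNA, 2.86% ± 1.05 in P40, 1.06% ± 0.292 in P100 and 2.68% ± 0.310 in S100 (SD, n = 4, 4, 4 and 3). miR-141-3p made up 0.408% ± 0.0256, 0.152% ± 0.0435, 0.0771% ± 0.0107 and 0.172% ± 0.0226 in the same order. For both, P100 was the lowest of the fractions and no fraction library reached the total exRNA range. In the other direction, miR-483-5p held 0.640% ± 0.117 in total exRNA and 1.43% ± 0.512, 1.52% ± 0.242 and 4.33% ± 0.994 in P40, P100 and S100. miR-1246 held 0.169% ± 0.0267 against 0.821% ± 0.320, 0.338% ± 0.0602 and 0.467% ± 0.0970. miR-1180-3p, miR-320c and miR-483-3p were the other 3 below every fraction library. Total exRNA and S100 were precipitated and P40 and P100 were not. The rule that chose these miRNAs fixed the direction against S100 and both pellets alike, and the part of precipitation was not tested.

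**Figure D5:**
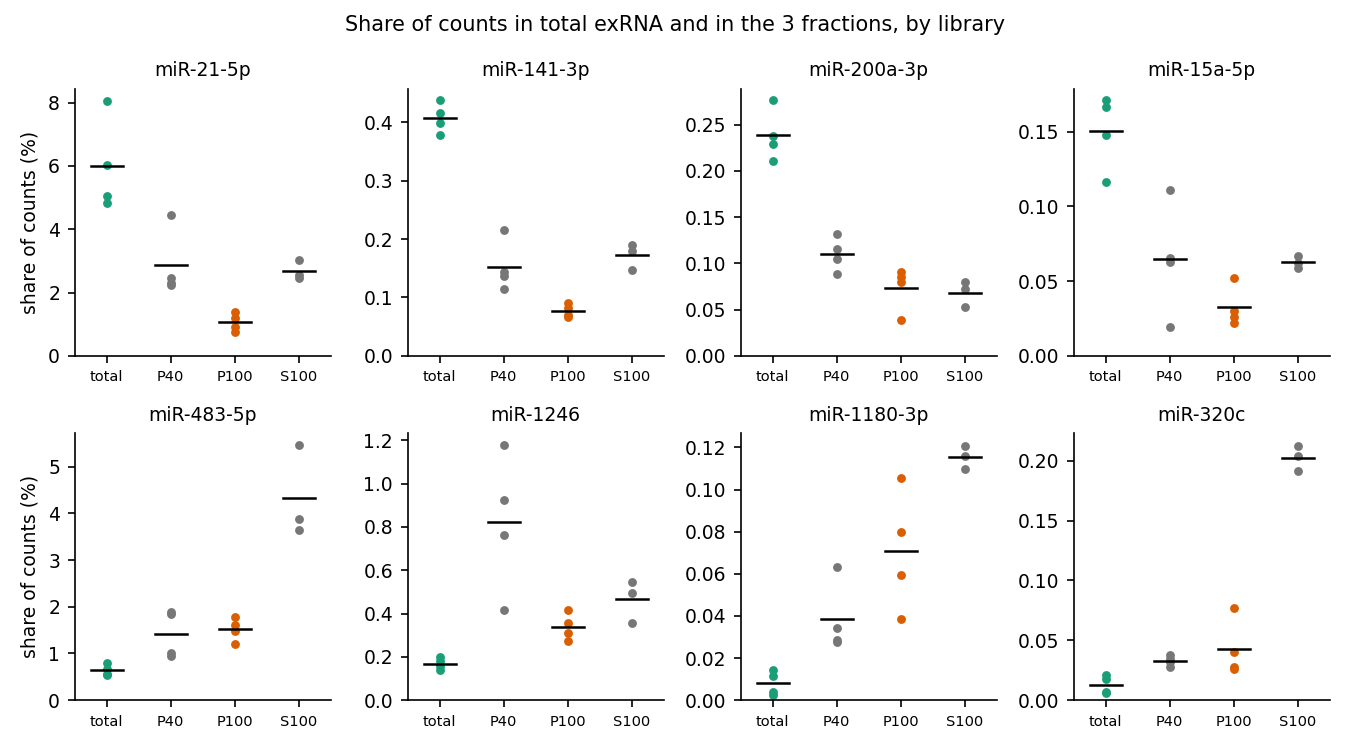
Share of counts (%) of 8 miRNAs in each library of total exRNA, P40, P100 and S100, with bars at group means (S100 without replicate 1). In the top row total exRNA lies above all 11 fraction libraries, as for miR-21-5p at 4.82% to 8.06% against at most 4.44%, and in the bottom row below all 11, as for miR-483-5p at 0.531% to 0.789% against at least 0.945%.

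The leading P100 entries had a different order across the fractions. miR-12136 held 0.365% ± 0.116 of P100 counts, 0.152% ± 0.101 of P40, 0.0148% ± 0.0135 of total exRNA and 0.00691% ± 0.00161 of S100. miR-3651 held 0.498% ± 0.0590, 0.330% ± 0.130, 0.0889% ± 0.0277 and 0.0191% ± 0.00631 in that order. Means of both were highest in P100 and lowest in S100. miR-103a-3p, by contrast, held 0.789% ± 0.154 in P100 and 1.72% ± 0.705 in P40, between 2.97% ± 0.789 in total exRNA and 0.232% ± 0.0267 in S100.

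Fewer miRNAs were found in P100 at the same depth. Thinned to 10017 counts, the P100 libraries held 268, 259, 263 and 273 miRNAs and the total exRNA libraries 279, 285, 288 and 286. Every P100 library was below every total exRNA library, with means of 265.8 ± 6.02 and 284.7 ± 3.77 and a difference of -18.9 (exact two-sided permutation test p = 0.0286, the smallest possible for 4 against 4). At 5000 counts the difference was -11.2 (exact p = 0.0571), and within batches the exact p of the difference at 10017 counts was 0.125 by sign flips, the smallest that 4 pairs allow.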

How the data were processed

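The authors deposited a table of raw counts for each library, with a line for each mature human miRNA that had a count. The submitters' processing notes name cutadapt 1.16, FastQC, Bowtie2 and the GRCh38 build. Settings, any filter, the assignment of reads with several matches and the annotation release are not given in the sources used here, so near-identical miRNAs may have exchanged reads. Per the labels, RealSeq-AC libraries were read as single ends of 50 bases. No molecular identifiers are named, and counting intervals leave out other error.

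miRNAs absent from a table were set to 0. S100 replicate 1 (48 counts) was left out, and 18 libraries in 5 groups were fitted with edgeR 4.0.16 in R 4.3.3: filterByExpr (minimum count 10, minimum total 15; 227 of 1043 listed miRNAs, 98.5% to 99.1% of the counts), TMM scaling and the robust quasi-likelihood test (common biological coefficient of variation 0.419), with Benjamini-Hochberg adjustment over the 227. Called means an adjusted p below 0.05. SE follows from the F statistic. Single library values were compared by exact two-sided permutation tests. The fit was tested on simulated data.

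Named are the 12 largest rises and falls among called miRNAs whose groups do not overlap and whose higher mean is at least 100 CPM, the 8 most abundant of each group, the most abundant and up to 3 called members of each list, both arms of hairpins with a called arm, and miRNAs with 0 counts in one group and at least 30 in the other. miRNAs outside this rule (such as miR-205-5p, miR-375-3p, miR-3196 and uncalled family members) were chosen with their values seen. The members and lists were chosen with earlier results of these data known.

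The labels give each sample a batch number equal to its replicate number, which pairs the samples. Deviations of same-numbered libraries from their group means correlated at 0.119, 0.0998, -0.0505 and 0.143 (replicates 1 to 4). Alternatives were DESeq2 1.42.0, other scalings and filters, only the 8 libraries, the replicate block, equal depth and leaving out each library.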

Additional observations from a re-analysis of the deposited data

Results flagged for a closer look

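For the named miRNAs, each group of 4 libraries was searched for a library far from the other 3 (Dixon's test at the 95% level). Chance alone sets apart about 1 in 20 groups, and 15 of 176 groups had such a library. That rate does not hold where the other 3 libraries are all at 0, since any count is then set apart. This was so in P100 for miR-192-3p, miR-362-5p, miR-622 and miR-1260b. Total exRNA replicate 2 accounted for 6: miR-365a-3p at 903 CPM (others at most 111), miR-365b-3p at 814 (others at most 83.3), miR-182-5p at 9411 (others at most 2217), miR-372-3p at 83399 (others at most 29990), miR-371a-3p at 20613 (others at most 14176) and miR-200a-5p at 44.4 (others at least 278).

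P100 replicate 1 accounted for 5. miR-10395-3p stood at 770 CPM there (others at most 101) and miR-301a-3p at 296 (others at least 646). miR-192-3p, miR-362-5p and miR-622 were each at 59.3 CPM, which is 1 count, with 0 in the other 3 libraries. miR-1260b was at 87.6 CPM in P100 replicate 3 and at 0 in the other 3. P100 replicate 4, the shallowest, had miR-483-5p at 12276 CPM (others at least 17307) and miR-21-3p at 0 (others at least 119). miR-29a-3p was at 1622 CPM in total exRNA replicate 3 (others at least 2749).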

How the results depend on the processing

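Counts of calls (30 higher, 33 lower) stayed within 1.5 times under all alternatives. DESeq2 called 36 and 44, scaling by library size alone 26 and 41 (median of all shifted by -0.19), the TMM variant for zeros 32 and 30, no low-count filter 23 and 35 (shift -0.20), a minimum count of 30 30 and 23, only the 8 libraries 21 and 25, and equal depth 24 and 24. With the replicate block in the fit of 5 groups 31 and 32 were called, and of the 63 calls 61 were kept: the block ended those of miR-28-3p and miR-193a-5p alone. With only the 8 libraries and the replicate block it was 30 and 28. P100 libraries were the shallower, at 10017 to 27027 counts. By sign flips of the differences within batches (replicate block), miRNAs detected at equal depth (-18.9) and the share of the 5 most abundant (9.95 points) gave an exact p of 0.125, the smallest that 4 pairs allow. At 5000 counts the former was -11.2 (exact p = 0.0571). Without 1 library the former ran from -21.3 to -16.7 and the latter from 8.39 to 11.2 points.

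None of the 63 called miRNAs changed sign in the 17 settings where they were tested. Values near 0 did. miR-182-5p (0.07) became -0.13 by library size and -0.14 without the filter. miR-192-5p (0.16) became -0.024, -0.056 and, at equal depth, -0.00062. miR-10396b-5p (-0.11) became 0.014 with the TMM variant and 0.0056 at equal depth, miR-193a-3p (0.34) -0.78 at equal depth, and miR-378a-3p (-0.06) 0.015 with the TMM variant. Without 1 library the values ran from -0.19 to 1.02 for miR-182-5p, from -0.26 to 0.021 for miR-10396b-5p, from -0.16 to 0.082 for miR-378a-3p, from -0.52 to 0.68 for miR-193a-3p, from -0.21 to 0.012 for miR-200c-3p, from -0.72 to 0.058 for miR-372-3p and from -0.13 to 1.70 for miR-663a. The cause was not tested.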
